A study of Mus musculus with 12 samples.

Results

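Expression of 9 genes of hepatic glucose production and storage was followed across livers and bone marrow-derived macrophages (BMDMs). The genes were *Pck1*, *Pcx*, *Fbp1*, *G6pc*, *Slc2a2*, *Pklr*, *Gys2*, *Pygl* and *Ppargc1a*. They were chosen by gene symbol from the 55335 genes of the count table, and each symbol had 1 row. The rule used no measured value, but the members were chosen with earlier results of these data known.

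After a meal the liver takes up glucose and stores it as glycogen, and between meals it releases glucose from glycogen and from gluconeogenesis, the synthesis of glucose from lactate, amino acids and glycerol. Insulin lowers the transcription of *Pck1*, *G6pc* and *Ppargc1a* in hepatocytes, whereas glucagon, acting through cAMP, raises it. *Pklr* belongs to the opposite, glucose-using direction and is raised by feeding.

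RNA was sequenced from 12 libraries in 4 groups of 3, with male littermates of the C57BL/6N strain as the source. The controls, Tshr f/f, carried a floxed *Tshr* (the receptor of thyrotropin, TSH) without Cre. The Tshr MKO mice carried the same floxed alleles with Lyz2-Cre, in which the *Lyz2* promoter drives Cre in myeloid cells, so that hepatocytes of these mice keep the gene by design. The livers came from mice that were 6 weeks old at the start of a high-fat diet of 9 weeks, were fasted for 8 h and received insulin at 1.5 U/kg 5 min before death; both genotypes were treated alike. The BMDMs came from mice 6 weeks old by the labels, and 6 to 8 weeks old by the study's supplement. The cells grew for 7 days with M-CSF at 10 ng/mL and were given TSH at 1 ng/mL for 24 h in both genotypes. No library without TSH was analysed here. Nothing in the labels ties a liver to a BMDM culture, and p-values measure the spread between these libraries. 

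The libraries held 28962878–40954211 counts. *Tshr* had 0 counts in all 6 livers and was above 0 in 1 BMDM library of each genotype (2 counts in Tshr f/f, 5 in Tshr MKO), so the deletion could not be checked. The genotype headings of a list in the study's own supplement are the reverse of the labels for livers, and all liver directions below follow the labels, so that Tshr f/f livers and Tshr MKO livers stand for the libraries so labelled. *Alb*, the hepatocyte product albumin, was at 1346867–2711351 counts in livers and at 0 in all 6 BMDM libraries, and the macrophage marker *Adgre1* was at 40011–55561 counts in BMDMs and 319–1422 in livers. Levels are given as CPM, counts per 1e+06 of the library total after trimmed-mean (TMM) factors computed within each tissue.

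In liver, *Pck1* and *Pklr* were the members whose genotypes did not overlap, *Pck1* lower and *Pklr* higher in Tshr MKO livers, and neither passed the test. With edgeR's quasi-likelihood test, 0 of 9 members had an adjusted p under 0.05 (0% of the 15062 genes tested were called), and 0 had an unadjusted p under 0.05, which 10.5% of all genes tested had. DESeq2 called 0 members as well (2.04% of the 13009 genes it gave an adjusted p), with 2 at an unadjusted p under 0.05, *Pck1* and *Pklr*, as 11% of all genes were. The MARS model, the test of the study, takes summed counts without replicates. At an adjusted p under 0.05 alone, it called 8 members and 56.7% of all genes. The study also required a fold change of at least 2, and all 8 members were below that. The fold change was below 1 for 5 members and above 1 for 4 (below 1 for 50.9% of all genes), and their median was −0.02 on the log2 scale against −0.01 over all genes tested. Groups that did not overlap were found for 17.3% of all genes tested, 7.74% lower and 9.6% higher, beside 1 member in each direction. Scaled over all 12 libraries, the summed neutrophil markers were at 11.5–115 CPM in Tshr f/f livers and 12.8–21.2 in Tshr MKO livers, with all 7 of the markers tested at a fold change below 1 and the highest sum in Tshr f/f replicate 1; the part of this in the members' values was not tested. The summed markers of hepatocytes overlapped between the genotypes (147549–172385 and 160338–169457 CPM). In whole liver, fewer hepatocytes and less RNA per hepatocyte cannot be told apart.

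**Figure D1:**
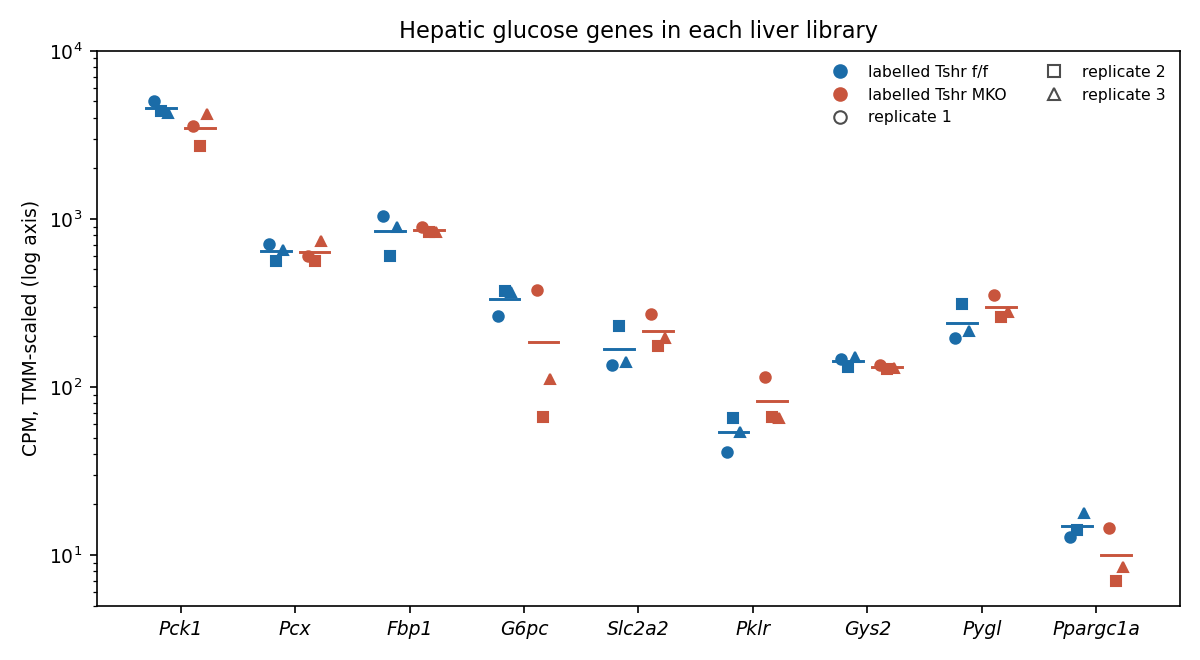
Level of each of the 9 genes in each liver library, in TMM-scaled CPM on a log axis. Each point is a library, its shape gives the replicate and the horizontal line is the mean of 3; the points do not overlap between genotypes for *Pck1* and *Pklr* alone, and *G6pc* spreads from 66.6 to 378 CPM in Tshr MKO livers.

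*Pck1* encodes cytosolic phosphoenolpyruvate carboxykinase, which commits oxaloacetate to gluconeogenesis (ENSMUSG00000027513, chromosome 2, 173153048–173159273, plus strand, GRCm38). Its level was 5029, 4378 and 4288 CPM in Tshr f/f livers and 3565, 2705 and 4184 in Tshr MKO livers. All 3 Tshr MKO livers lay below the lowest of the others, by a narrow margin in replicate 3. The means were 4565 ± 404 and 3485 ± 742 CPM (SD, n = 3), and the log2 fold change was −0.39 (95% interval −0.82 to 0.04, SE 0.18, adjusted p = 0.507 by edgeR). It was the most abundant member per kilobase of exon, at 1331 CPM per kb in Tshr f/f livers. The sequence before its start is shown because the cAMP pathway acts on this gene. In the RefSeq promoter table (GRCm38.p6), the bases from 250 to 26 before the start (chr2:173152823-173153047, plus strand) hold 1 core of the cAMP response element (TGACG), read on the opposite strand and given in capitals.
Pck1: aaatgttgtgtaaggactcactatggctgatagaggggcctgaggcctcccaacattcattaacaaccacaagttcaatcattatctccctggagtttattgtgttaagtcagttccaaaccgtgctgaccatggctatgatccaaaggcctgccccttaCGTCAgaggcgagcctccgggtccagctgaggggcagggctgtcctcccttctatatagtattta

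*Pcx* and *Fbp1* stand before and after that step. *Pcx* encodes pyruvate carboxylase, which makes oxaloacetate from pyruvate (chromosome 19, 4510472–4621752, plus strand, overlapped on the minus strand by *Lrfn4*). It stood at 709, 561 and 652 CPM in Tshr f/f livers and 597, 563 and 736 in Tshr MKO livers. The genotypes overlapped, and the log2 fold change was −0.02 (95% interval −0.37 to 0.34, SE 0.15, adjusted p = 0.981 by edgeR). *Fbp1*, fructose-1,6-bisphosphatase (chromosome 13, 62864753–62888282, minus strand), was at 1045, 605 and 891 CPM against 893, 832 and 834. The Tshr MKO livers lay within the range of the others, with a log2 fold change of 0.01 (95% interval −0.46 to 0.48, SE 0.20, adjusted p = 0.991 by edgeR).

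*G6pc* encodes the catalytic subunit of glucose-6-phosphatase, the last step of both gluconeogenesis and glycogen breakdown (ENSMUSG00000078650, chromosome 11, 101367561–101377903, plus strand). It stood at 265, 371 and 369 CPM in Tshr f/f livers and at 378, 66.6 and 111 in Tshr MKO livers. Replicate 1 of the latter had the highest level of all 6 livers, whereas replicates 2 and 3 had the lowest. The log2 fold change was −0.86 (95% interval −2.32 to 0.61, SE 0.61, adjusted p = 0.679 by edgeR), and it was −1.92 (unadjusted p = 0.00067, adjusted p = 0.687) without replicate 1 and −0.47 without replicate 2. The coefficient of variation in Tshr MKO livers was 90.9%, at percentile 99.6 of the 11981 genes with a mean of at least 50 counts, against 18% in Tshr f/f livers. The 30 bases around its TATA box, from 41 to 12 before the RefSeq start (chr11:101367675-101367704, plus strand, inside the first exon of the GENCODE transcript), are shown with the letters TATAAA in capitals.
G6pc: gaatccagggcaTATAAAacaggggcaagg

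*Slc2a2* encodes GLUT2, the glucose carrier of the hepatocyte membrane (chromosome 3, 28697903–28731359, plus strand, with the antisense gene 1700112D23Rik). It stood at 135, 232 and 140 CPM in Tshr f/f livers and 272, 176 and 195 in Tshr MKO livers. Replicate 2 of the former lay among the latter, and the log2 fold change was 0.34 (95% interval −0.27 to 0.96, SE 0.26, adjusted p = 0.697 by edgeR).

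*Pklr* encodes the pyruvate kinase of liver and red cells, which ends glycolysis (ENSMUSG00000041237, chromosome 3, 89136142–89146784, plus strand, overlapped on the minus strand by *Hcn3*). It stood at 41.3, 65.2 and 54.3 CPM in Tshr f/f livers and 115, 66.7 and 65.5 in Tshr MKO livers. The groups were separate, but replicates 2 and 3 of the Tshr MKO group lay just above the highest of the others. The means were 53.6 ± 12 and 82.5 ± 28.5 CPM (SD, n = 3), and the log2 fold change was 0.62 (95% interval −0.02 to 1.27, SE 0.27, adjusted p = 0.492 by edgeR). Without Tshr MKO replicate 1 it was 0.30. RefSeq gives 2 starts for *Pklr*. The bases from 250 to 52 before the downstream one (chr3:89136373-89136571, plus strand) are shown because they hold a pair of CACGGG letters in opposite orientations, the core of the carbohydrate response element, in capitals.
Pklr: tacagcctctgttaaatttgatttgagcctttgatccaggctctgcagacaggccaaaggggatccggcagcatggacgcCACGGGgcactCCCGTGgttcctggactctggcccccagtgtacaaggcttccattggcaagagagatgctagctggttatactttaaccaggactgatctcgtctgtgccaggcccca

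Of the glycogen enzymes, *Gys2*, the glycogen synthase of liver (chromosome 6, 142422613–142473109, minus strand), was the steadiest member. Its level was 147, 132 and 151 CPM in Tshr f/f livers and 136, 128 and 130 in Tshr MKO livers. The coefficients of variation were 7.1% and 3.3%, and the log2 fold change was −0.13 (95% interval −0.35 to 0.09, SE 0.09, adjusted p = 0.686 by edgeR). *Pygl*, the glycogen phosphorylase of liver (chromosome 12, 70190811–70231488, minus strand, overlapped on the plus strand by F730035M05Rik), was at 195, 311 and 216 CPM against 354, 262 and 281. The genotypes overlapped through Tshr f/f replicate 2, and the log2 fold change was 0.31 (95% interval −0.17 to 0.80, SE 0.21, adjusted p = 0.643 by edgeR).

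*Ppargc1a* encodes PGC-1α, a coactivator that raises *Pck1* and *G6pc* in fasting (ENSMUSG00000029167, chromosome 5, 51454250–51567726, minus strand, overlapped by 3 other annotated genes on its strand and 1 on the other). It stood at 12.7, 14.0 and 17.8 CPM in Tshr f/f livers and 14.5, 6.98 and 8.46 in Tshr MKO livers. As with *G6pc*, Tshr MKO replicates 2 and 3 were the lowest of the 6 livers and replicate 1 lay among the controls. The log2 fold change was −0.57 (95% interval −1.25 to 0.11, SE 0.29, adjusted p = 0.530 by edgeR), and −0.95 without Tshr MKO replicate 1. The bases from 250 to 2 before its RefSeq start (chr5:51567727-51567975, printed on the minus strand) hold the same core, in capitals, as those of *Pck1*.
Ppargc1a: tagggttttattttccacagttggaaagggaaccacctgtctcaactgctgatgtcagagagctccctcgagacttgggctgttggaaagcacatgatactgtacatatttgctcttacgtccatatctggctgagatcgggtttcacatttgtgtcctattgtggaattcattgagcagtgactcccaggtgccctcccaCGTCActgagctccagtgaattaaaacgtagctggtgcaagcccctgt

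**Figure D2:**
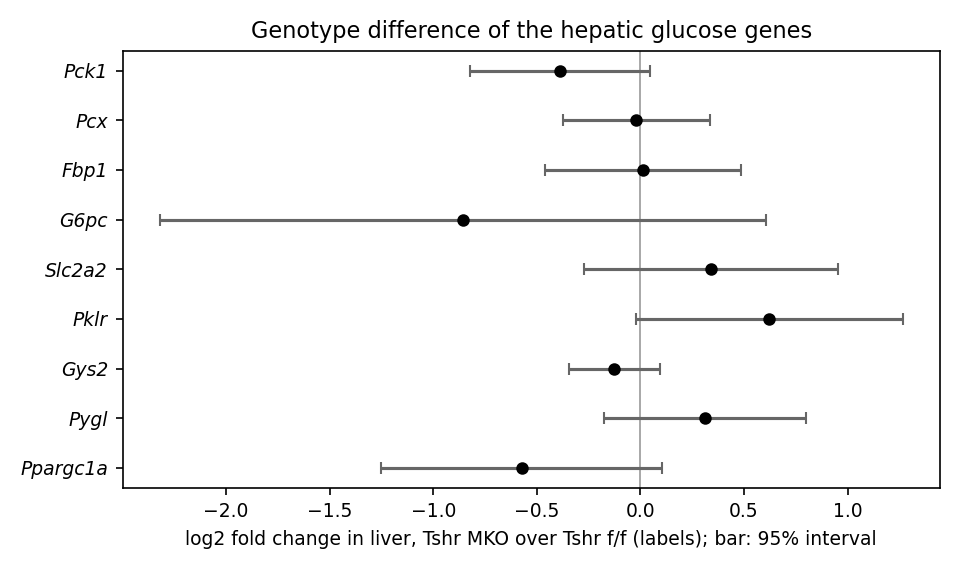
Fitted log2 fold change of each gene in Tshr MKO livers over Tshr f/f livers (edgeR, n = 3 a group), with its 95% interval as the bar. Every interval includes 0; the widest is that of *G6pc* and the narrowest that of *Gys2*.

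Motifs were searched on both strands in the 250 bases before each RefSeq start, in 10 windows of 8 members and in 32851 windows of all genes. The core TGACG was in windows of *Pck1*, *Ppargc1a* and *Pygl*, and in 17.8% of all windows. TATAAA was in those of *G6pc* and *Pklr* (12.4% of all windows), CACGGG in those of *Pklr* and *Pygl* (8.46%), and the E-box CACGTG in 1 of those of *Pcx* (6.02%). The full cAMP response element TGACGTCA, which contains TGACG, the FoxO site TGTTTAC, the glucocorticoid response core AGAACA and the HNF1 site were in 0 of the members' windows, against 1.55%, 3.17%, 16.1% and 0.0091% of all windows. These are matches of exact letters and not tested sites, and a window without a match may still hold a variant of the site.

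Per kilobase of exon, the order of levels in Tshr f/f livers was *Pck1* (1331 ± 118 CPM per kb, SD, n = 3), *Fbp1* (498 ± 131), *G6pc* (139 ± 25.0), *Pcx* (135 ± 15.7), *Gys2* (53.9 ± 3.8), *Pygl* (34.9 ± 8.96), *Slc2a2* (29.4 ± 9.47), *Pklr* (16.6 ± 3.70) and *Ppargc1a* (2.25 ± 0.40). The neighbours *G6pc* and *Pcx*, and *Pygl* and *Slc2a2*, overlapped and the other neighbours did not. This order depends on the exon length used. In CPM without it, *Pygl* (mean 241) and *Slc2a2* (169) stood above *Gys2* (143) in Tshr f/f livers. In Tshr MKO livers, *Pck1* (1016 ± 217) and *Fbp1* (501 ± 20.4) again stood apart at the top and *Ppargc1a* (1.51 ± 0.60) at the bottom, but every pair of neighbours from *Pcx* through *G6pc*, *Gys2*, *Pygl* and *Slc2a2* to *Pklr* overlapped. *G6pc* was there at 76.7 ± 69.7 CPM per kb.

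Whether *Pck1* varied with the other members from liver to liver was asked with 8 correlations over the 6 livers. None passed after adjustment over the 8 pairs (exact permutation tests, two-sided, with 0 pairs at an unadjusted p under 0.05 for r and 1 for rho; lowest adjusted p 0.404 for Pearson's r and 0.267 for Spearman's rho). The strongest relation by rank was with *Pklr*, which was lower where *Pck1* was higher (rho = −0.89, exact permutation p = 0.0333, adjusted p = 0.267; r = −0.53, p = 0.253, adjusted p = 0.404). Without the livers farthest from the median of *Pck1*, Tshr MKO replicates 1 and 2, its r was −0.90, and within the genotypes it was −0.86 and 0.12 over 3 livers each. *Pck1* and *Pklr* each separated the genotypes, in opposite directions, so their pooled rho could only be negative. The permutation test did not keep the genotypes apart, so its p does not test a relation beyond that split. For *G6pc*, r was 0.62 (exact permutation p = 0.207, adjusted p = 0.404; rho = 0.26, p = 0.658, adjusted p = 0.714), 0.26 without those 2 livers, −0.99 within the Tshr f/f livers and 0.43 within Tshr MKO livers. The other 6 pairs had r between −0.40 and 0.61. Tshr f/f replicate 1 lay almost as far from the median of *Pck1* as Tshr MKO replicate 1 did. The values of r without 2 livers therefore rest on a near tie, and those of the other choice are not given.

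Among 11980 other genes with a mean of at least 50 counts, the 3 whose log2 levels over the 6 livers were most like those of *Pck1* were *Flcn* (Pearson's r = 0.996), Gm10705 (0.987) and *Wdr59* (0.986). Those most like *G6pc* were *Dhrs1* (0.988), *Dnmbp* (0.986) and *Phf20* (0.984). *Dnmbp* stood at 49.8, 54.6 and 51.4 CPM in Tshr f/f livers and 55.4, 30.6 and 39.3 in Tshr MKO livers, the same order of livers as *G6pc* over a smaller range. These are the highest of many values over 6 livers of 2 genotypes and are given as a description.

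Besides the members, 60 genes of glucose output, glycolysis, glycogen synthesis, glycogen breakdown and their regulation were listed, and 58 passed the filter on low counts in liver. With edgeR, 0 were called, 35 had a fold change below 1 and 23 above it, and the median log2 fold change was −0.05 against −0.01 over all genes tested. At an unadjusted p under 0.05, 10 were lower and 4 higher, against 5.18% and 5.27% of all genes. DESeq2 called 4 of them, *Sik1* and *Igfbp1* lower and *Khk* and *Ugp2* higher, beside 1.09% lower and 0.953% higher of the genes it gave an adjusted p. 

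Of the 10, 5 were regulators. Of 21 regulators tested, 16 had a fold change below 1, with 5 at an unadjusted p under 0.05, 0 higher at that limit, and a median log2 fold change of −0.16. Over all genes tested, 50.9% had a fold change below 1, and 5.18% were lower and 5.27% higher at that limit. The lists were chosen with earlier results of these data known, so these counts are a description and not a test of the regulators. *Sik1*, a kinase induced by cAMP that restrains CREB coactivators, had the lowest fold change of the regulators at 45.4, 34.6 and 84.2 CPM in Tshr f/f livers and 11.4, 12.7 and 11.5 in Tshr MKO livers. The groups were far apart, with a log2 fold change of −2.20 (SE 0.33, adjusted p = 0.303 by edgeR, DESeq2 adjusted p = 8.3e-09). *Igfbp1*, a binding protein of insulin-like growth factors that insulin represses, was at 257, 255 and 252 CPM against 119, 42.1 and 97.8. All 3 Tshr MKO livers lay well below the lowest control, with a log2 fold change of −1.56 (SE 0.36, adjusted p = 0.334 by edgeR, DESeq2 adjusted p = 0.000684). The regulator with the highest fold change was *Cebpb*, which encodes a transcription factor, with a log2 fold change of 0.57 (SE 0.30, adjusted p = 0.562 by edgeR). *Foxo1*, which encodes the factor through which insulin represses *G6pc* and *Igfbp1*, was at 55.5, 66.0 and 60.6 CPM against 59.2, 49.0 and 61.6, and overlapped between genotypes (log2 fold change −0.10, SE 0.12, adjusted p = 0.816 by edgeR). *Irs2*, an insulin receptor substrate, was at 15.8, 10.6 and 25.8 CPM against 13.5, 5.17 and 12.5 (−0.75, SE 0.45, adjusted p = 0.603), again with overlap. Tshr MKO replicate 2 had the lowest *G6pc*, *Ppargc1a*, *Pck1*, *Igfbp1* and *Irs2* of the 6 livers.

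**Figure D3:**
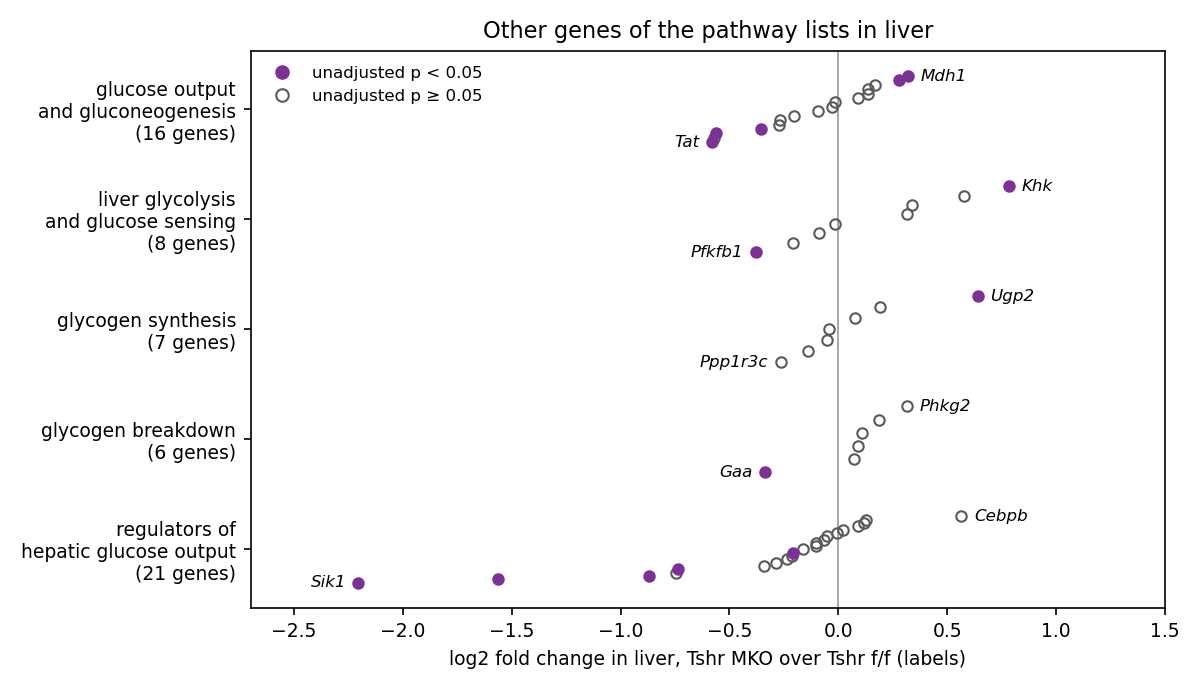
Fitted log2 fold change (Tshr MKO livers over Tshr f/f) of the other genes of each list, with the lowest and the highest of each list named. Filled points had an unadjusted p under 0.05 and open points did not. After adjustment 0 passed, and 5 filled points lie among the regulators, all below 0. The lists were chosen with earlier results of these data known.

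Among the 16 tested genes of glucose output and gluconeogenesis, 3 were lower and 2 higher at an unadjusted p under 0.05, against 5.18% and 5.27% of all genes. The extremes were *Tat*, tyrosine aminotransferase (3717 ± 587 CPM against 2483 ± 498, SD, n = 3, log2 fold change −0.58, SE 0.20, adjusted p = 0.4 by edgeR), and *Mdh1*, cytosolic malate dehydrogenase (381, 373 and 322 against 471, 414 and 458, 0.32, SE 0.12, adjusted p = 0.425). Neither pair of groups overlapped, although for *Tat* Tshr MKO replicate 3 came close to the lowest control once scaled. Of 8 genes of glycolysis and glucose sensing, *Khk*, which phosphorylates fructose, was highest by fold change at 136, 181 and 136 CPM against 288, 226 and 268. The groups were separate, with a log2 fold change of 0.78 (SE 0.16, adjusted p = 0.315 by edgeR, DESeq2 adjusted p = 0.00256). *Pfkfb1*, which makes and breaks fructose-2,6-bisphosphate, was lowest at 80.2, 57.8 and 58.8 CPM against 48.6, 51.0 and 51.8 (−0.38, SE 0.14, adjusted p = 0.431 by edgeR).

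In glycogen synthesis, *Ugp2*, which makes UDP-glucose, was highest at 132.9, 190 and 134 CPM against 269, 226 and 219, with separate groups (log2 fold change 0.64, SE 0.17, adjusted p = 0.334 by edgeR, DESeq2 adjusted p = 0.0485). *Ppp1r3c*, a glycogen-targeting phosphatase subunit, was lowest at 58.5, 196 and 60.5 CPM against 87.9, 83.8 and 90.8 (−0.26, SE 0.47, adjusted p = 0.898 by edgeR). In glycogen breakdown, *Gaa*, the lysosomal glucosidase, was lowest (127, 106 and 132 against 93.1, 92.4 and 104, −0.34, SE 0.11, adjusted p = 0.409 by edgeR) and *Phkg2*, a phosphorylase kinase subunit, highest (35.2, 27.5 and 29.7 against 31.4, 41.4 and 41.9, 0.31, SE 0.15, adjusted p = 0.510).

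In BMDMs *Pygl* and *Pcx* were the members that passed the filter on low counts, and the other 7 were at or near 0 counts. *Pck1*, *G6pc* and *Pklr* had 0 counts in all 6 libraries. *Fbp1* had 2 counts in Tshr f/f replicate 3, and *Slc2a2* and *Gys2* had 3 and 2 counts in Tshr MKO replicate 2, with 0 in the other libraries. A floor of 3 counts in a library is used for such genes, for counting error only. *Ppargc1a* had 0 counts in all 3 Tshr f/f BMDM libraries and 11, 15 and 4 in the Tshr MKO libraries. Against 3 counts per Tshr f/f library its level was at least 3.02-fold higher in Tshr MKO BMDMs. The filter on low counts left it out, and the fit without a filter gave an edgeR adjusted p of 0.276 (unadjusted p = 0.00653). The hepatocyte markers *Alb*, *Ttr* and 4 others of 10 were at 0 counts in all BMDM libraries, and the sum of the 10, of 155–341 CPM in Tshr MKO and 22.5–83.1 in Tshr f/f (scaled over all 12 libraries), was almost all *Trf*, transferrin, which macrophages also make.

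With edgeR, 0 of the 2 members tested in BMDMs were called (0% of 15372 genes tested), and 1, *Pcx*, was lower at that unadjusted limit, which 17.9% of all genes passed (10.2% lower). *Pcx* had 190, 351 and 215 counts, or 4.77, 8.04 and 8.26 CPM, in Tshr f/f and 172, 155 and 118 counts, or 4.49, 4.13 and 2.84 CPM, in Tshr MKO. The groups were separate, as in 28.7% of all genes tested, with a log2 fold change of −0.88 (SE 0.31, 95% interval −1.61 to −0.14, edgeR unadjusted p = 0.0264, adjusted p = 0.244), and between −1.06 and −0.70 with each library left out. *Pygl* had 61.1, 190 and 60.4 CPM against 81.3, 75.6 and 169, with 1 high library in each genotype, and a log2 fold change of 0.06 (SE 0.55, 95% interval −1.28 to 1.4, adjusted p = 0.959). Of the 60 other genes of the lists, 45 were tested in BMDMs and 0 were called, with 5 lower and 6 higher at an unadjusted p under 0.05, as 10.2% and 7.73% of all genes were. DESeq2 called 7 of these, 3 lower and 4 higher, and 0 members, beside 7.93% of the genes it gave an adjusted p, 4.54% lower and 3.39% higher. MARS called both members tested and 75.9% of all genes.

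**Figure D4:**
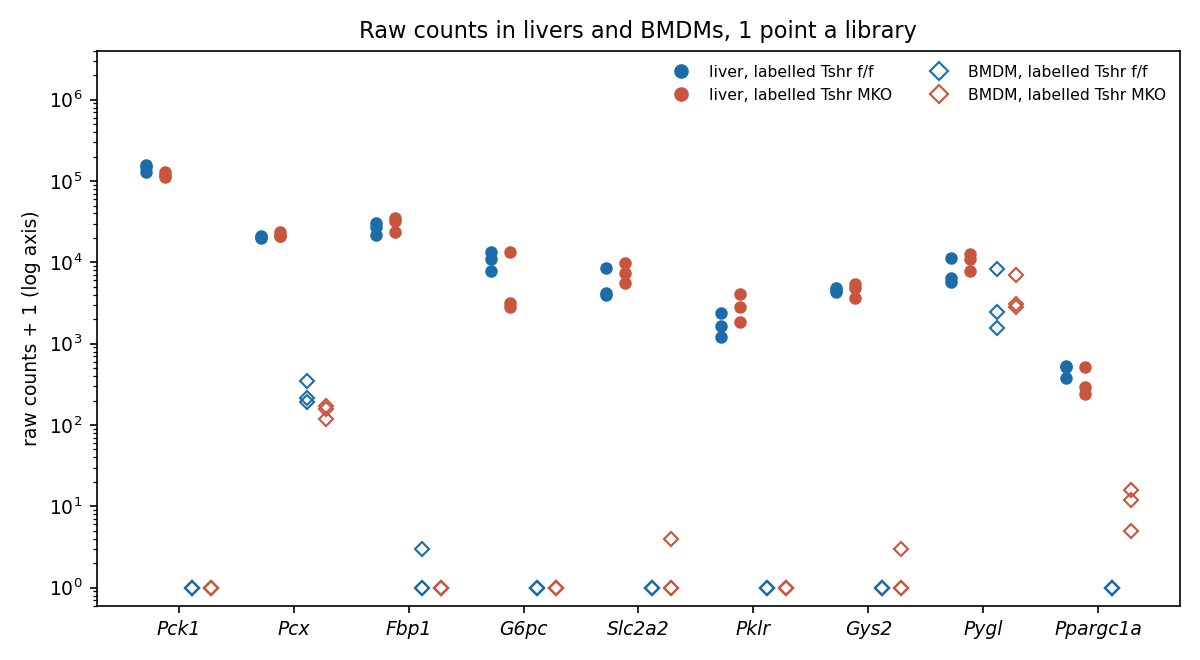
Raw counts plus 1 of each gene in all 12 libraries, on a log axis, with livers as filled circles and BMDMs as open diamonds. *Pck1*, *G6pc* and *Pklr* lie at 0 counts in all BMDM libraries, whereas *Pygl* reaches 8312 counts in a BMDM library and *Ppargc1a* is above 0 in the Tshr MKO BMDMs alone.

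Between tissues in Tshr f/f, *Pcx* and *Pygl*, the members that passed the filter on low counts in BMDMs, were lower there than in liver and passed the test, where 63.4% of 15931 genes were called and 33.8% were called lower. The other 7 had 0 to 2 summed counts in Tshr f/f BMDMs and entered the test through liver alone, so that their direction was fixed and no test of them is given. Tissue, culture, TSH, diet and insulin cannot be told apart here. Against 3 counts per BMDM library, the level in liver was at least 97315-fold higher for *Pck1*, 7159-fold for *G6pc*, 3613-fold for *Slc2a2*, 3052-fold for *Gys2*, 1145-fold for *Pklr* and 317-fold for *Ppargc1a*. These bounds order with the level in liver and not with any measured difference in BMDMs. For *Fbp1*, with 2 counts in BMDMs, the ratio was 85526 (95% counting interval 23676–706219). *Pcx* was 169-fold higher in liver (log2 fold change, BMDM over liver, −7.40, SE 0.35, adjusted p = 3.6e-05 by edgeR). *Pygl* was 4.32-fold higher in liver (−2.11, SE 0.53, adjusted p = 0.0129), but with library totals alone, a scaling that moved the median of all genes from −0.05 to 0.78, it was −1.19 and no longer passed (adjusted p = 0.122). Without Tshr f/f BMDM replicate 2, the library with the highest *Pygl*, it was −2.87 (adjusted p = 0.000913 by edgeR).

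The difference of the genotype effects between tissues was tested with an interaction term over all 12 libraries. It called 1 gene of 17246 (0.0058%), *Gprc5c*, and neither *Pcx* nor *Pygl*. *Pcx* had a liver minus BMDM difference in log2 fold change of 0.86 (SE 0.33, adjusted p = 0.288 by edgeR, unadjusted 0.0260, where 14.5% of all genes had an unadjusted p under 0.05), and *Pygl* one of 0.24 (SE 0.65, 95% interval −1.20 to 1.68, adjusted p = 0.939). The other 7 members entered this test through liver alone, and no difference is given for them.

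Several members have a counterpart that serves the same step in other tissues, and the share of the liver form was computed per kilobase of exon. In Tshr f/f, 11 of the 12 counterparts were tested between tissues, all 11 had a higher fold change in BMDMs and 8 were called (29.6% of all genes were called higher). *Hk3* (log2 fold change 6.35), *Hk2* (5.90) and *Hk1* (3.69), which encode hexokinases, *Pkm*, the muscle-type pyruvate kinase (5.50), and *Slc2a1*, which encodes GLUT1 (3.26), rose most, followed by *Gys1* (2.12), *Pck2* (1.88) and *Pygb* (1.49). *Slc2a3* (1.06), *Pygm* (1.05) and *G6pc3* (0.78) did not pass, and *Fbp2* had 0 counts in BMDMs.

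The pairs differed in these shares. *Pklr* made up 80.6, 69.6 and 82.4% of the pair with *Pkm* in Tshr f/f livers, 91.3, 78.0 and 86.7% in Tshr MKO livers, and 0% in BMDMs. *Slc2a2* made up 84.9–89.9% of the pair with *Slc2a1* in Tshr f/f livers and 91.5–95.7% in Tshr MKO livers, groups that did not overlap. Each of these genes taken singly did overlap between the liver genotypes. Of all single genes tested in liver, 17.3% did not overlap, and no such share was computed for ratios of genes. *G6pc* made up 98.0–99.2% and 92.4–98.3% of the pair with *G6pc3*, and *Gys2*, *Pck1* and *Fbp1* over 97% of theirs. *Pygl* was the exception, with 95.8–98.3% of the pair with *Pygb* in livers and still 53.2, 76.6 and 68.4% in the Tshr f/f BMDM libraries, against 49.3, 49.0 and 64.8% in the Tshr MKO ones. In liver, *Slc2a1* had a log2 fold change of −0.56 (SE 0.22, adjusted p = 0.456 by edgeR) between genotypes, and in BMDMs *Slc2a1* stood at 100, 186 and 432 CPM in Tshr f/f and 41.4, 41.4 and 63 in Tshr MKO (−2.30, SE 0.55, adjusted p = 0.218).

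**Figure D5:**
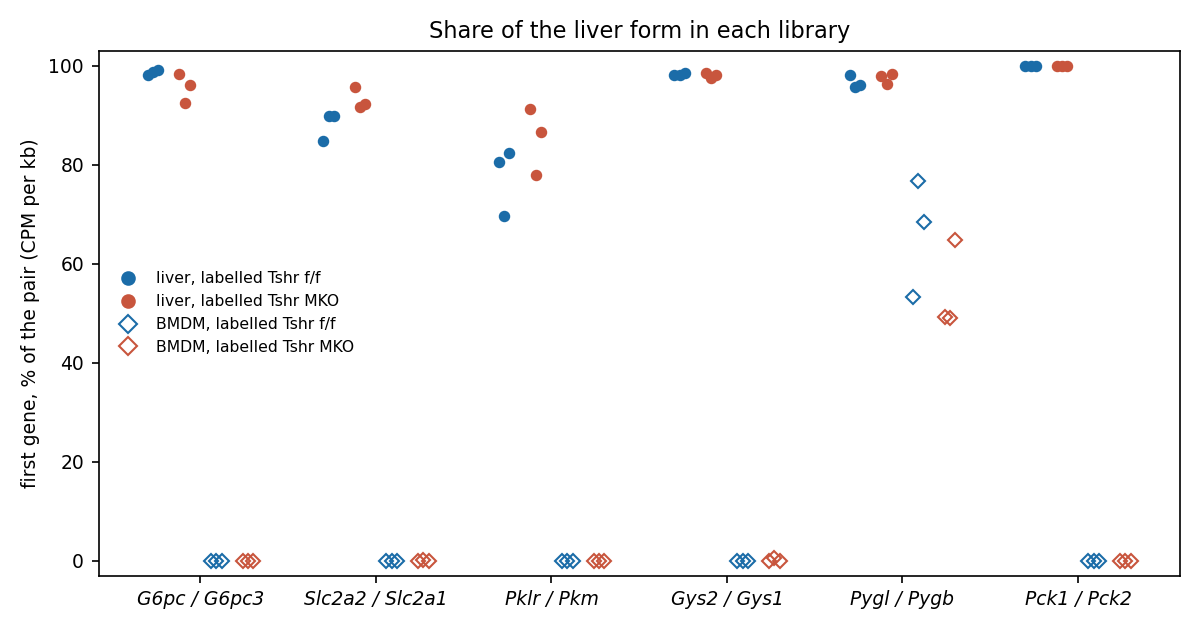
Share of the liver form, in percent of the summed level of the pair per kilobase of exon, in each library (livers as filled circles, BMDMs as open diamonds). All pairs shown but *Pygl* and *Pygb* fall to 0.57% or less in BMDMs, where *Pygl* keeps 49.0–76.6%.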

How the data were processed

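Strand-specific mRNA libraries were read on a NovaSeq instrument. Per the study's supplement, Skewer handled the raw reads and FastQC 0.11.2 checked their quality. The labels name STAR, StringTie and mm10 without a role. The counting program and annotation release are not given in the sources used here. The authors deposited raw counts of reads for each gene in 12 libraries, and these are the values used. Loci and exon lengths were taken from GENCODE M21 (GRCm38). The exon length of a gene was the union of all its annotated exons, whether or not they are used in these tissues. Orders and shares per kilobase depend on it.

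Groups follow the labels, with n = 3. Genes were tested with edgeR 4.0.16 in R 4.3.3 (quasi-likelihood, robust, TMM, filterByExpr), with Benjamini-Hochberg adjustment over all genes tested and a call at an adjusted p under 0.05. The SE is the log2 fold change over the square root of F, and intervals are 95% intervals. CPM on the log scale had a prior count of 2. Correlations had exact permutation tests over 720 orders of the livers. The study's test was the MARS model of DEGseq, which takes no replicates, and it was run as an alternative on summed counts with 0 set to 0.5. The study's cut at a fold change of 2 was not applied to its calls. Other alternatives were DESeq2 1.42.0, other scaling factors (RLE, upper-quartile, none), other filters (none, or 50 counts on average), the 12 libraries fitted together, a block for replicate number, a covariate for the sample ID letter (A or B, livers), and leaving out each library. The edgeR and DESeq2 code was tested on simulated data, and the MARS code was not. A floor of 3 counts per library stands for 0, and intervals and floors cover counting error only.

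Named genes were the 9 members, counterpart isoforms, called genes of the lists, the extremes of each list in liver, *Igfbp1*, *Foxo1*, *Irs2*, the 3 genes most like *Pck1* and *G6pc*, and checks of tissue; *Gprc5c*, *Trf* and *Ttr* were added after their values were seen, and 1 gene of the rule is not reported here. The members and lists were chosen with earlier results of these data known. Python 3.11.15 with scipy 1.17.1 and matplotlib 3.10.9 served for permutation tests and plots.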

Additional observations from a re-analysis of the deposited data

How the results depend on the processing

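The number of members called was unchanged at 0 in liver and 0 in BMDMs under every alternative but the MARS model, which called 8 and 2, all below 2-fold (56.7% and 75.9% of all genes), and at 0 with each library left out. For the other genes of the lists, 0 were called in each tissue except that in liver DESeq2 called 4 and MARS 44, and in BMDMs DESeq2 called 7, all 12 libraries in a fit 2 (*Gpd1* and *Cebpa*) and MARS 44. In the test of the difference between tissues, DESeq2 called 1 member, *Ppargc1a*, which entered it through liver alone and had 0 counts in Tshr f/f BMDMs, and 0 were called with each library left out. The tissue difference of *Pcx* and *Pygl* was called under each alternative except that library totals alone lost *Pygl*, and that scaling called 3192 genes lower and 7239 higher in BMDMs against 5383 and 4718. In liver, DESeq2 called 142 genes lower and 124 higher, in BMDMs 696 and 520, and leaving out Tshr f/f replicate 2 gave 4 and 3 in liver and 13 and 0 in BMDMs.

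Differences near 0 changed sign. *Pcx* in liver (−0.02) was 0.011 with library totals alone, 0.022 with the letter covariate, 1.9e-05 with MARS and −0.14 to 0.049 with each library left out, *Fbp1* in liver (0.011) was −0.015 with the letter covariate and −0.19 to 0.18 with each library left out, and the r of *Pck1* and *Fbp1* (0.11) was −0.26 with library totals alone. With each library left out, *Pygl* lay between −0.41 and 0.84 in BMDMs and between −0.52 and 0.72 in the test between tissues; the cause was not tested. *Pck1* in liver kept its sign in all alternatives, from −0.54 to −0.25 with each library left out, and *Pklr*, from 0.30 to 0.78.

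For the replicate numbers, the mean of its group was taken from each log2 CPM, over the 5000 most abundant genes. These deviations, and not the levels, were correlated between libraries of 2 groups. The 3 deviations of a gene in a group sum to 0, which constrains the values. For same-numbered libraries the correlation was between −0.20 and 0.04 in liver, between 0.03 and 0.24 in BMDMs and between −0.15 and 0.02 between tissues. Differently numbered libraries lay between −0.27 and 0.38 in liver, between −0.27 and 0.23 in BMDMs and between −0.07 and 0.17 between tissues. With so few libraries, these values cannot decide whether the replicate numbers pair the samples. With the replicate number as a block, 0 members were called in liver, 0 in BMDMs, 9 between tissues (7 of them at 0 to 2 summed counts in Tshr f/f BMDMs, with their direction fixed) and 0 in the test of the difference. With 3 libraries a group, an effect the size of that of *Pck1* or *Pklr* was not called in liver, and BMDM values of members at 0 to 15 counts are limited by depth.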
